A study of Drosophila melanogaster with 9 samples.

Results

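The genes described here are 10 odorant receptor genes of the *Drosophila melanogaster* larva whose receptors are known to respond mainly to aliphatic odors, the straight-chain or branched esters, alcohols, aldehydes and ketones of fruit and leaves. They are *Or7a*, *Or13a*, *Or35a*, *Or42a*, *Or42b*, *Or45a*, *Or47a*, *Or67b*, *Or74a* and *Or85c*. They were taken by name from the 17421 genes in the deposited gene tables, and all 10 had a count in at least 1 library. RNA came from dorsal organs, the larval olfactory organs, of larvae in the third instar. There were 4 wild-type and 5 *Orco* mutant samples, each a pool of 20 organs made into 1 library. All larvae had the *w1118* background and carried *Orco-Gal4* and *UAS-mCD-8GFP*, so that GFP marked the olfactory receptor neurons (ORNs) by which organs were picked. The mutants were in addition homozygous for *orco1*, a null allele of *Orco*, and every mutant library rests on this 1 allele. The comparison asked whether loss of *Orco* changes receptor RNA. The study investigated possible roles of ORN activity prior to a stimulus, mainly by calcium imaging and optogenetic behavior assays. It used the RNA to ask whether altered channel expression could account for the altered responses of mutant ORNs. Adjusting over ion channel genes alone, it reported *Orco* and 4 odorant receptor genes as the only such genes to differ.

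Each larval ORN carries a receptor that sets its odor specificity, and most ORNs choose 1 such receptor. The receptor protein pairs with Orco, the co-receptor shared by these neurons, and together they form an odor-gated cation channel in the dendrite. Without Orco the receptor proteins do not reach the dendrite, and both odor responses and most ongoing activity are lost. Because each receptor is used by very few cells of the organ, its RNA is rare in a whole-organ sample. The odor tuning of these receptors is background knowledge that RNA levels cannot check.

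Depth was 4432839 to 7005182 estimated counts for the 4 wild-type samples and 4090474 to 9157645 for the 5 mutants. The mutants were thus not the shallower group as a whole. The authors had left out a further mutant sample for its low read count. Of these counts, rRNA genes took 33.3% to 53.8% in wild-type and 35.8% to 47.3% in mutant libraries. A wild-type library detected 8457 to 9499 genes and a mutant library 6790 to 10935. The mutated gene was checked first, and *Orco* had at least 1025 counts in every wild-type sample and at most 16 in any mutant, as the labels state. Levels are given as CPM, counts relative to library size after scaling by TMM, a method that sets libraries to a common level over most genes. All 10 neuron genes examined as markers, *elav* and *nSyb* among them, were seen in both genotypes, at a summed level of 351 to 981 CPM in wild-type and 349 to 1152 in mutant libraries. Their part in the results below was not tested. The samples were whole organs, so fewer neurons of a class and less RNA per neuron cannot be told apart here.

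*Orco* mutant dorsal organs held less RNA of the 10 receptors in sum, and 9 of the 10 had a lower mean level than in wild-type. The exception was *Or47a*. Among the 9, *Or74a* and *Or85c* had 100% and 90% of their wild-type counts in 1 library. Over the 8160 genes tested below, 50.1% had a negative fold change. The summed level of the 10 genes was 104, 134, 158 and 119 CPM in wild-type libraries 1 to 4, and 15.6, 15.2, 25.6, 27.0 and 35.2 CPM in *Orco* mutant libraries 1 to 5. No mutant library reached the lowest wild-type library. Wild-type samples averaged 129 ± 23.1 CPM (SD, n = 4) and mutants 23.7 ± 8.44 CPM (SD, n = 5), 5.43 times less, and this sum was given no test because the genes were chosen with results known. With *Or47a* left out of the sum the ratio was 10.2. Over the 40 pairs of a gene and a wild-type library, 33 had a count and 29 had at least 10 counts. Over the 50 pairs with a mutant library, 20 had a count and 14 had at least 10.

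**Figure D1:**
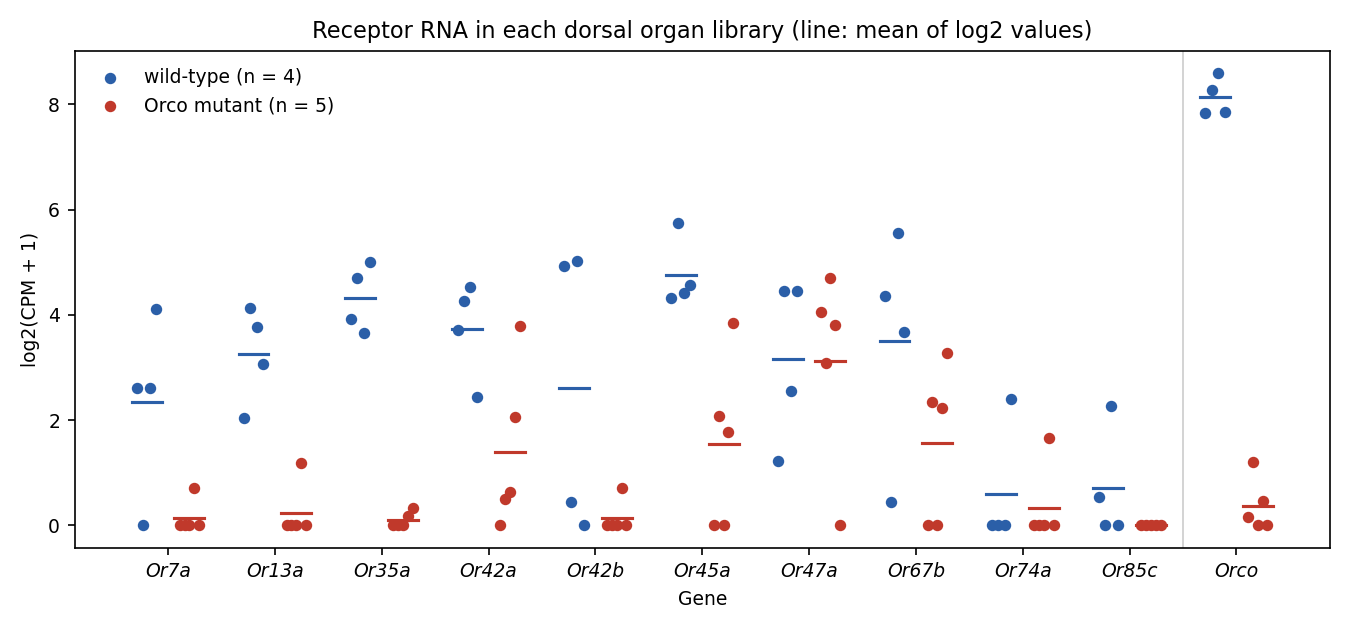
Level of each of the 10 receptor genes and of *Orco* in every library, as log2(CPM + 1). Blue points are the 4 wild-type and red points the 5 *Orco* mutant libraries, and short lines are means of the log2 values. *Or13a*, *Or35a* and *Or45a* are the receptor genes whose wild-type and mutant points do not overlap, while those of *Or47a* lie over the same range.

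In edgeR's quasi-likelihood test of 8160 genes, at a threshold of 0.05 after Benjamini-Hochberg adjustment across them all, 0 of the 10 receptors passed as lower and 0 as higher. Over all genes, 0.0368% passed as lower (3 genes, *Orco* among them) and 0% as higher. A gene was tested only above a minimum of counts, which *Or13a*, *Or35a*, *Or42a*, *Or45a*, *Or47a* and *Or67b* did and *Or7a*, *Or42b*, *Or74a* and *Or85c* did not. Of the 6 tested, 5 had a negative fold change, as did 50.1% of all tested genes. *Or35a* and *Or13a* could pass the minimum only through wild-type libraries, where they were higher. No weight is therefore put on this share or the next. At an unadjusted p under 0.05, 3 of the 6 tested were lower against 2.76% of all tested genes, and 0 were higher against 2.21%. These were *Or35a*, *Or13a* and *Or45a*, and they were also the 3 of 10 whose libraries did not overlap between the genotypes, against 1.89% of the 12748 genes with a count and 2.68% of those tested. DESeq2, the tool of the study, called 2 of the 10 lower, *Or35a* and *Or13a*, when adjusted over all its genes. It called 0.684% lower of the 9060 genes with an adjusted p, which *Or74a* and *Or85c* lacked. Genes varied widely between samples of 1 genotype, with a common biological coefficient of variation of 0.996.

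*Or35a* showed the largest difference of the tested receptors. It encodes a broadly tuned receptor for alcohols and aldehydes, which adult flies use in a coeloconic sensillum, and it lies on chromosome 2L of the Release 6 genome from 15622068 to 15623558 on the minus strand, with 4 exons. It had 63, 141, 55 and 238 counts in wild-type libraries 1 to 4, and 0, 0, 0, 1 and 1 counts in *Orco* mutant libraries 1 to 5. All wild-type libraries were far above all mutant libraries. The level was 20.4 ± 9.11 CPM (SD, n = 4) against 0.0748 ± 0.111 (SD, n = 5). Its log2 fold change was -7.93 with a standard error of 1.44 and a 95% interval from -11.46 to -5.20, and its adjusted p was 0.0883 from edgeR and 2.71e-11 from DESeq2. From the summed counts the wild-type level was 397 times the mutant level, with an interval from 109 to 3285 that covers counting error only.

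*Or13a*, whose receptor responds to mushroom alcohol, lies on the X chromosome from 15974425 to 15976706 on the plus strand, with 6 exons. Its counts were 14, 93, 60 and 57 in the wild-type libraries and 0, 0, 0, 10 and 0 in the mutant libraries. Wild-type 1, the lowest wild-type library, stood at 3.12 CPM, above *Orco* mutant 4 at 1.26 CPM, the only mutant library with a count. The log2 fold change was -5.13 (standard error 1.73, interval -8.98 to -1.46), with an adjusted p of 0.781 from edgeR and 0.0468 from DESeq2. Its size rests on the 10 counts of *Orco* mutant 4, since without that library the mutants hold 0 counts and the fitted value, then -8.98 (adjusted p = 0.501 from edgeR), depends on the prior count.

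*Or45a*, a receptor of an octyl acetate-sensitive ORN whose activation drives larvae away, lies on chromosome 2R from 9345349 to 9348863 on the plus strand, with 2 exons. It had the most counts of the 10 genes in wild-type samples, with 85, 298, 96 and 176 in libraries 1 to 4. The mutant libraries had 0, 39, 0, 19 and 54 counts. *Orco* mutant 1 and 3 thus lacked it, *Orco* mutant 5 held 13.4 CPM, and the lowest wild-type library held 19.0 CPM. The log2 fold change was -2.93 (standard error 1.34, interval -5.84 to -0.021, adjusted p = 0.992 from edgeR), and -4.30 without *Orco* mutant 5 (adjusted p = 0.534 from edgeR). *CG13739* and *CG13954* span the gene on the other strand, and none of their annotated exons share a base with those of *Or45a*.
A two-sided exact permutation test of the mean CPM gave p = 0.00794 for each of *Or35a*, *Or13a* and *Or45a*. That is the smallest p that 4 against 5 libraries allow, and the adjusted p was 0.438 over all genes with a count. With no overlap between the genotypes, the observed grouping gives the largest fall in the mean, so this p adds little to that. Of all genes with a count, 4.67% were lower at a permutation p under 0.05.

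**Figure D2:**
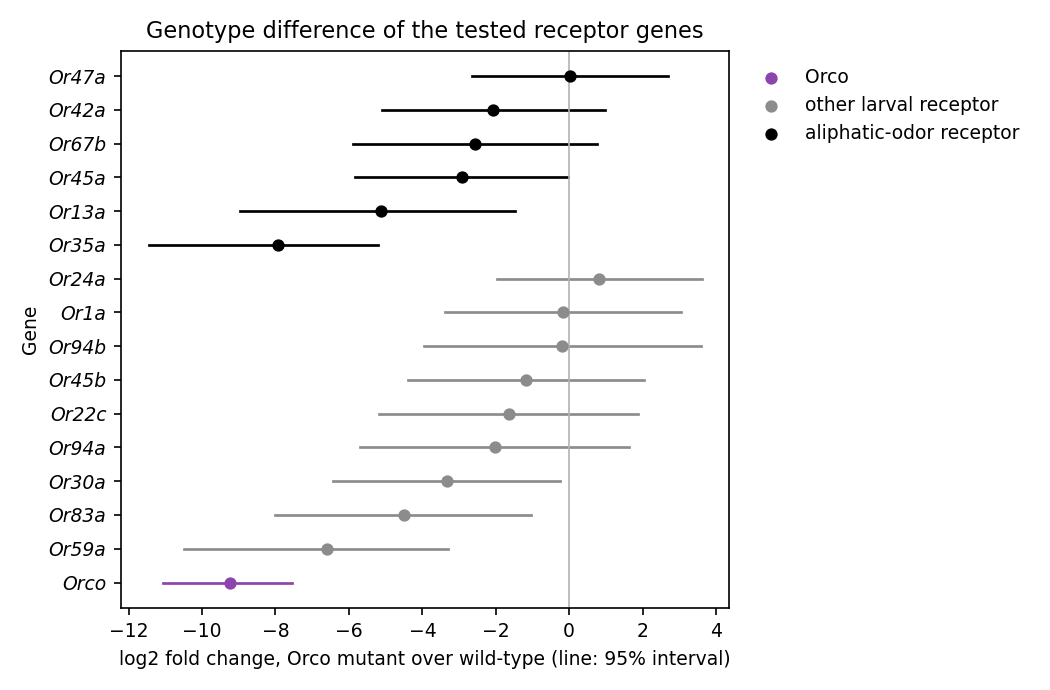
Log2 fold change of each tested receptor gene, *Orco* mutant over wild-type, from edgeR, with the 95% interval as a line. Black marks the aliphatic-odor receptors, gray the other larval receptors and purple *Orco*. The intervals of *Or35a*, *Or13a* and *Or45a* lie below 0, while that of *Or47a* reaches from -2.64 to 2.69.

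*Or42a* and *Or42b* encode receptors for fruit esters such as ethyl acetate, and their ORNs drive larvae toward food odors. Both genes lie on the minus strand of chromosome 2R, *Or42a* from 5791441 to 5792967 and *Or42b* from 5797195 to 5798512, each with 3 exons.
*Or42a* had 54, 102, 104 and 34 counts in the wild-type libraries and 0, 5, 2, 25 and 52 in the mutant libraries. In CPM the mutant libraries ran from 0 to 12.9 and the wild-type libraries from 4.42 to 22.0, so the groups overlapped through *Orco* mutant 5 alone. On the log2 scale the difference was -2.06, with a standard error of 1.40 and an interval from -5.11 to 0.97, and it did not pass (adjusted p = 0.997 from edgeR). Without *Orco* mutant 5 it was -3.75 (adjusted p = 0.669 from edgeR).
*Or42b* had 132, 2, 150 and 0 counts in the wild-type libraries and 0, 0, 0, 5 and 0 in the mutant libraries. It was therefore plentiful in wild-type 1 and 3, with 29.5 and 31.7 CPM, and nearly or wholly unseen in wild-type 2 and 4. *Or35a* was at its highest in wild-type 2 and 4, while wild-type 2 also lacked *Or7a*, *Or74a* and *Or85c* and had 2 counts of *Or67b*. With no filter the log2 fold change of *Or42b* was -6.61 (standard error 2.07), and it did not pass (adjusted p = 0.591 from edgeR; 0.0858 from DESeq2).

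*Or67b*, which in adult flies responds to green leaf alcohols, lies on chromosome 3L from 9627316 to 9629193 on the minus strand, with 10 exons. Its counts were 87, 2, 217 and 91 in the wild-type libraries and 0, 50, 0, 29 and 35 in the mutant libraries. Wild-type 2 was as low as the mutants, while the other wild-type libraries, at 11.8 to 45.9 CPM, were above every mutant library. The log2 fold change was -2.55 (standard error 1.53, interval -5.88 to 0.75, adjusted p = 0.997 from edgeR).
*Or7a*, a receptor for green leaf aldehydes in adult flies, lies on the X chromosome from 8164266 to 8165708 on the minus strand, with 2 exons. Its level was 5.13, 0, 5.08 and 16.4 CPM in the wild-type libraries, and its 5 counts in the mutants were all in *Orco* mutant 4. Wild-type 2 thus lacked it like most mutants, and wild-type 4 held 72.8% of its wild-type counts. Fitted with no filter, it had a log2 difference of -5.42 with a standard error of 2.19 (adjusted p = 0.591 from edgeR), and the exact permutation test gave p = 0.0476 (adjusted p = 0.767 over all genes with a count).

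*Or74a* and *Or85c* were at the edge of detection. *Or74a*, a receptor for alcohols in larvae, lies on chromosome 3L from 17327733 to 17329169 on the minus strand, and *Or85c* on chromosome 3R from 8511734 to 8513022 on the minus strand, beside *Or85b*. *Or74a* had 33 counts in wild-type 4, 17 in *Orco* mutant 4 and 0 in the other 7 libraries, so it was seen in 1 library of each genotype. *Or85c* had 2 counts in wild-type 1, 18 in wild-type 3 and 0 in every other library. Set against a floor of 3 counts over the mutant libraries it was at least 10.6-fold lower there. That bound rests on wild-type 3, without which the wild-type total of 2 counts is itself under the floor. Of all genes with a count, 3.65% had 0 counts in every mutant library. *Or85b* also had counts in wild-type 1 and 3 only, 5 and 3.

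*Or47a* did not follow the other receptors. It encodes a receptor for esters such as pentyl acetate and lies on chromosome 2R from 11250368 to 11251913 on the plus strand, with 4 exons. The wild-type libraries had 6, 118, 23 and 160 counts and the mutant libraries 128, 91, 91, 103 and 0. The highest level of all was in *Orco* mutant 3 (25.1 CPM) and the lowest in *Orco* mutant 5 (0), with the wild-type libraries at 1.34 to 20.9 CPM in between. Wild-type samples averaged 12.0 ± 10.4 CPM (SD, n = 4) and mutants 12.2 ± 9.34 CPM (SD, n = 5). The fitted log2 difference was 0.026 (standard error 1.23; adjusted p = 0.999 from edgeR), and its interval from -2.64 to 2.69 leaves room for a several-fold difference either way. *Or47a* took 10.6% of the counts of the 10 genes in wild-type and 54.2% in mutant samples. In *Orco* mutant 1 it was the only one of the 10 with a count, and in *Orco* mutant 3 the only other was *Or42a*, with 2 counts. Whether *Or47a* differs in its response from the other receptors was not tested.
*Or33b* is known to be expressed in the same larval ORN as *Or47a*. It had 9, 48, 4 and 0 counts in the wild-type libraries and 5 counts in the mutants, all in *Orco* mutant 4. *Orco* mutant 1, 2 and 3 thus had 91 to 128 counts of *Or47a* and 0 of *Or33b*. The same was seen in wild-type 4, with 160 counts of *Or47a* and 0 of *Or33b*. The log2 fold change of *Or33b* with no filter did not pass (adjusted p = 0.596 from edgeR).

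**Figure D3:**
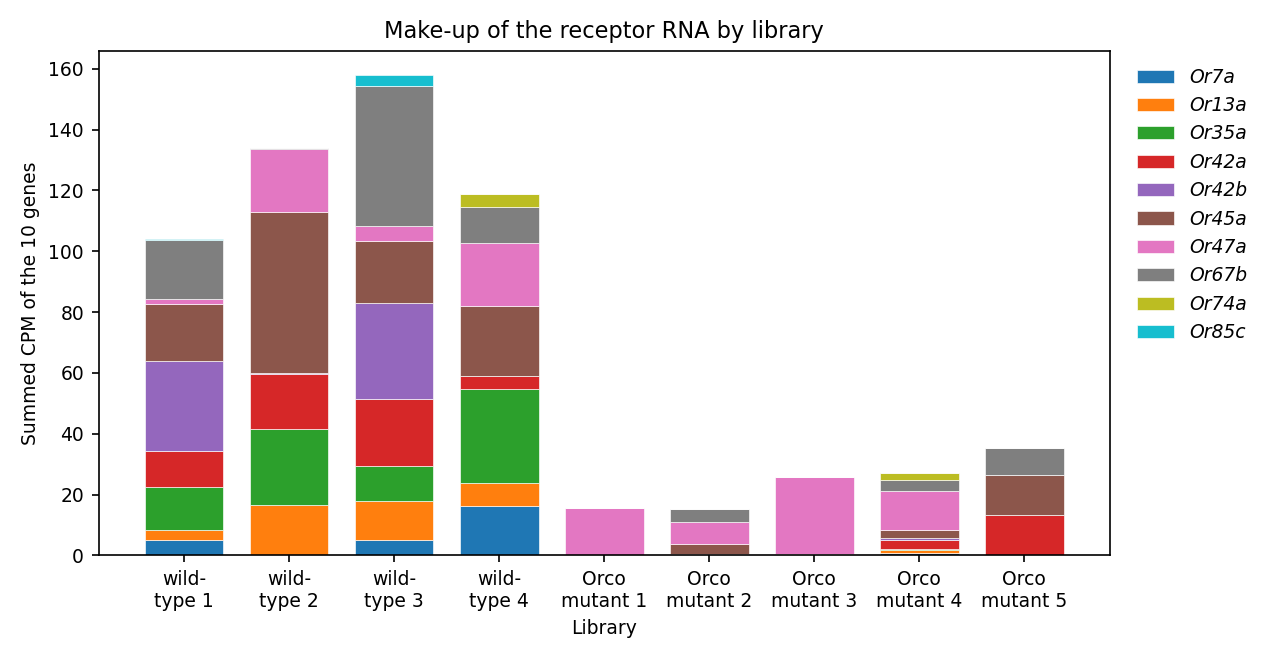
Summed CPM of the 10 receptor genes in each library, split by gene. The wild-type bars reach 104 to 158 CPM and hold 7 to 9 of the genes, whereas the mutant bars reach 15.2 to 35.2 CPM and hold 1, 4, 2, 9 and 4. *Or47a* makes up all or nearly all of *Orco* mutant 1 and 3 and is missing from *Orco* mutant 5.

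*Or47a* and *Or67b* share exonic sequence with a gene on the other strand, and the library kit does not mark strand, so reads there cannot be told apart. The last exon of *Or47a* overlaps *Cpr47Ea*, a cuticle protein gene, over 163 bases, 12.0% of the exonic length of *Or47a*. *Cpr47Ea* had 0 to 9 counts in every library, and 0, 9, 2 and 2 in *Orco* mutant 1 to 4, where *Or47a* had 91 to 128. *Or67b* overlaps the first exon of some *CG8336* transcripts (named *Cyp40* in the annotation used here) over 125 bases, 9.18% of its length, and *CG3335* over 6 bases. *CG8336* was at 13.1 to 17.2 CPM in wild-type libraries and at 0, 11.6, 1.65, 11.2 and 11.2 CPM in *Orco* mutant 1 to 5, so *Orco* mutant 1 and 3 were the lowest for both genes. The part of *CG8336* in the counts of *Or67b* was not tested. *Or67b* was also the only one of the 10 whose estimated counts were not whole numbers.

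**Figure D4:**
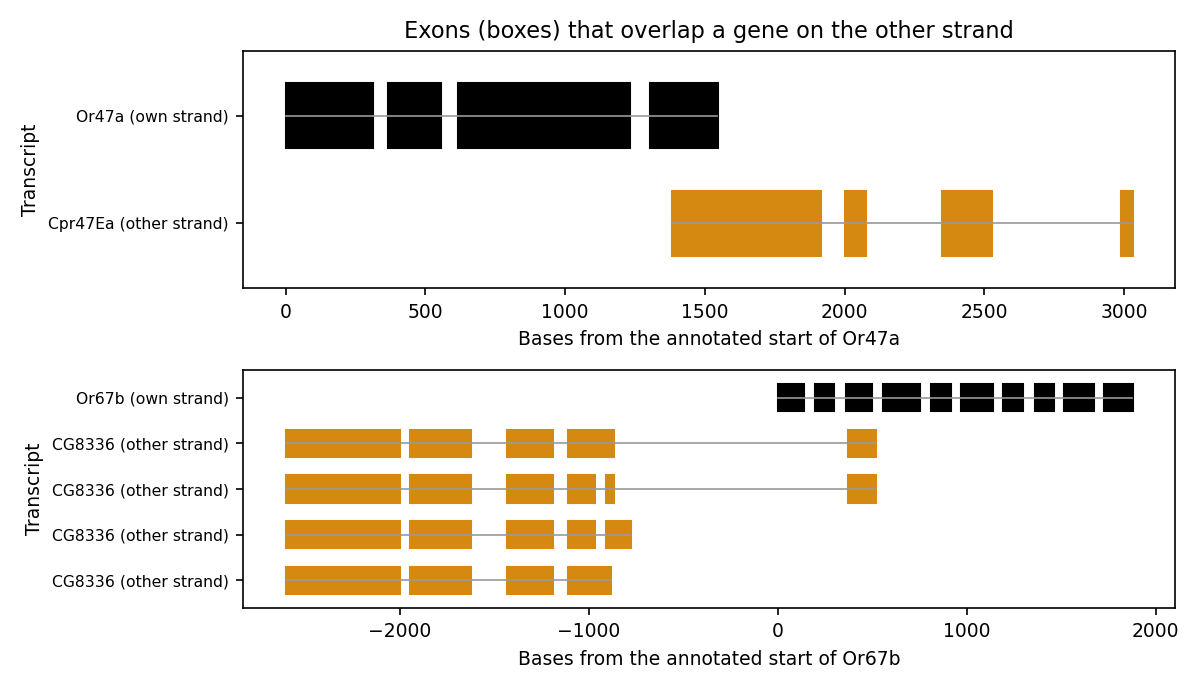
Exons of *Or47a* and *Or67b* (black boxes) and of *Cpr47Ea* and *CG8336*, which overlap them on the other strand (orange boxes, 1 row for each annotated transcript), with bases from the start of the receptor gene on the x axis. *Cpr47Ea* reaches into the last exon of *Or47a* by 163 bases, and 2 of the 4 *CG8336* transcripts reach into *Or67b* by 125 bases, while *CG3335*, with 6 bases, is not drawn.

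Detection was uneven among the mutant libraries. Wild-type libraries 1 to 4 had a count for 9, 7, 9 and 8 of the 10 receptors, and *Orco* mutant libraries 1 to 5 for 1, 4, 2, 9 and 4. *Orco* mutant 4, which had the most detected genes of all libraries (10935), was the only mutant library within the wild-type range. *Orco* mutant 3 had the fewest genes (6790). *Orco* mutant 1 and 2 had 9152 and 10148 genes and 7790163 and 9157645 counts, and *Orco* mutant 5 had 8427 genes and 4890000 counts. The part of detection in the result was not tested. Many of the receptors in *Orco* mutant 4 were there in traces, with 5 counts of *Or7a*, 5 of *Or42b*, 10 of *Or13a* and 1 of *Or35a*. The mutants also had the widest share of mitochondrial transcripts, 0.603% (*Orco* mutant 4) to 15.4% (*Orco* mutant 5) against 2.49% to 5.41% in wild-type, and the part of this in the result was not tested.

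**Figure D5:**
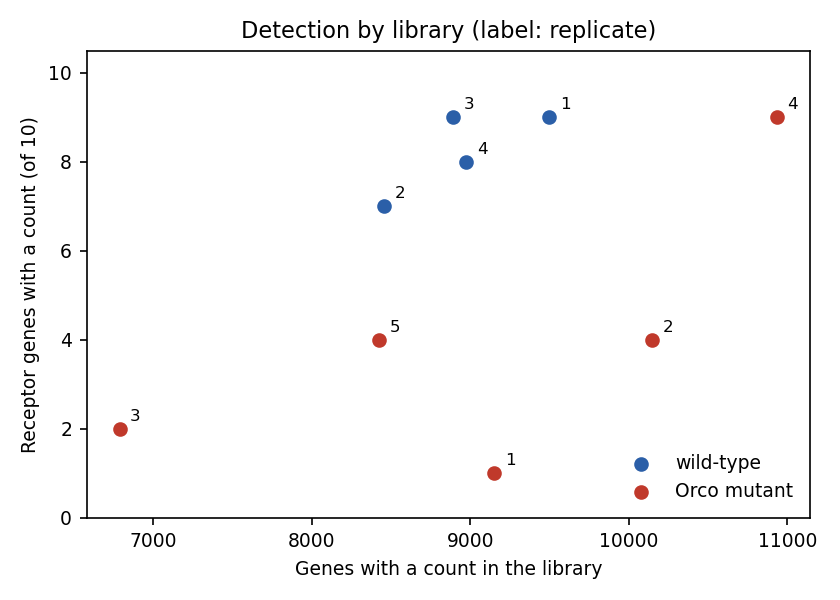
Number of the 10 receptor genes with a count against the number of all genes with a count, 1 point per library, labelled by replicate. The wild-type libraries (blue) have 7 to 9 receptors, and *Orco* mutant 1, 2, 3 and 5 (red) have 1 to 4, where *Orco* mutant 1 lies within the wild-type range of detected genes, mutant 2 and 4 above it, and mutant 3 and 5 below it.

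Levels between genes were compared per length, as CPM per kilobase of annotated exons. In wild-type samples the mean order was *Or35a* (15.8 ± 7.06), *Or67b* (14.2 ± 14.2), *Or42b* (12.8 ± 14.7), *Or42a* (11.1 ± 5.99), *Or47a* (8.81 ± 7.62), *Or45a* (8.31 ± 4.67), *Or13a* (7.90 ± 4.67), *Or7a* (5.35 ± 5.57), *Or85c* (0.909 ± 1.57) and *Or74a* (0.882 ± 1.76; SD, n = 4). Every gap between neighbours in that order was smaller than the larger of their SDs. *Or45a*, first by counts, falls to the sixth place because its annotated exons total 3461 bases, against 1170 to 1362 bases for the other 9. Of the 8 genes with the higher levels, *Or35a*, *Or42a*, *Or45a* and *Or13a* had SDs well below their means, and *Or42b* and *Or7a* had SDs above them. *Orco* was at 149 ± 38.3 CPM per kilobase. The 10 receptors summed to 86.1 ± 18.4 and the 25 larval receptors considered to 184 ± 50.3 (SD, n = 4).
In mutant samples the median level was 9.56 CPM per kilobase for *Or47a*, 2.69 for *Or67b*, 0.693 for *Or45a* and 0.431 for *Or42a* (n = 5), and 0 for the other 6.

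The other 15 larval odorant receptor genes, among them receptors for aromatic odors, were also lower in sum. Of these, 12 had a count, and 0 passed the edgeR test over all genes in either direction. At an unadjusted p under 0.05, 3 of the 9 tested were lower and 0 higher, against 2.76% and 2.21% of all tested genes. *Or59a*, among the 3, could pass the minimum of counts only through wild-type libraries, where it was higher. No weight is therefore put on this share either. DESeq2 called 2 of the 15 lower, against 0.684% of genes with an adjusted p. The DESeq2 calls were *Or59a* and *Or63a*. *Or63a* missed the filter, with 13, 174, 67 and 0 counts in the wild-type libraries and 0 in every mutant library, at least 135-fold lower against a floor of 3 counts over the mutant libraries (adjusted p = 0.00847 from DESeq2, and 0.370 from edgeR with no filter). Among the 9 that passed the filter, *Or59a* and *Or83a* had the smallest p, with log2 fold changes of -6.60 (standard error 1.66, adjusted p = 0.394 from edgeR) and -4.50 (standard error 1.61, adjusted p = 0.887 from edgeR). *Or24a*, the only tested one with a positive fold change, was at 0.82 (standard error 1.29, adjusted p = 0.997 from edgeR), with 52, 85, 8 and 9 counts in wild-type and 74, 323, 0, 103 and 67 in mutant libraries. *Or1a* and *Or94b* were at -0.17 and -0.18 (standard errors 1.48 and 1.74, adjusted p = 0.997 from edgeR for each). A mean near the wild-type level was thus not particular to *Or47a* among larval receptors. In sum the 15 genes reached 120 ± 58.4 CPM (SD, n = 4) in wild-type samples against 36.3 ± 16.4 CPM (SD, n = 5) in mutants, with 53.3 CPM in the lowest wild-type and 54.0 in the highest mutant library. The odorant receptor family outside both larval lists served as a background, and 14 of its 34 genes had a count and 6 had at least 10 counts in a library.

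Among all tested genes, the 3 whose log2(CPM + 1) followed that of *Or35a* most closely over the 9 libraries were *Or59a* (Pearson r = 0.992), *CG10467* (0.975) and *mRpS21* (0.974), and for *Or42a* they were *CG9119* (0.973), *UQCR-Q* (0.959) and *CG11368* (0.953). These are descriptions over libraries that share depth and genotype. *Or42b* was not among the tested genes, so no such list was made for it.
Of the genes listed as markers of olfactory neurons, *Orco* fell (log2 fold change -9.25, standard error 0.81, adjusted p = 3.75e-04 from edgeR) and 0 of the other 7 tested passed. The 8 genes of that list other than *Orco* summed to 151 to 269 CPM in wild-type and 169 to 418 CPM in mutant libraries. *IA-2* alone was at 91.4 to 224 CPM in wild-type and 84.9 to 269 CPM in mutant libraries, and *ey* was at 0 in 8 of the 9 libraries. The sum was not used as a measure of how many olfactory neurons a library held. *acj6*, a POU-domain transcription factor that in adult flies helps to select which receptor an ORN expresses, was at 0 to 2.31 CPM in wild-type and at 2.52 to 16.3 CPM in mutant libraries. Its libraries did not overlap, as for the 1.19% of tested genes that were higher in every mutant library than in any wild-type library, and it did not pass the test (log2 fold change 2.64, adjusted p = 0.997 from edgeR). With 1 wild-type library at 0, *acj6* could pass the minimum of counts only with mutant libraries, where it was higher. No weight is therefore put on that share.
Markers of other cells were present in both genotypes. The muscle list was at 252 to 2055 CPM in wild-type and 88.3 to 1569 in mutant libraries, the glia list at 999 to 1487 and 1172 to 2438, the hemocyte list at 0.212 to 50.4 and 3.41 to 111, and the fat body list at 10.7 to 203 and 1.15 to 194. A list of 5 ionotropic receptor genes was at 220.1 to 341 and 297 to 810 CPM. It held *Ir21a*, *Ir25a* and *Ir93a*, which cool-sensing neurons of the dorsal organ use, and the olfactory co-receptor genes *Ir76b* and *Ir8a*, with *Ir8a* at 0 in every library. *Hml* was at 0 in 1 wild-type and 3 mutant libraries, and *Mhc* and *repo* were seen in every library. Their part in the levels of the receptors was not tested.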

How the data were processed

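The authors removed reads with adapters (cutadapt 1.9.1), estimated transcript abundance with kallisto 0.43.0 against a FlyBase transcriptome and summed it per gene with tximport. The deposited values are estimated counts, not normalized, per gene and per transcript. Smart-seq2 amplifies cDNA without molecular identifiers, so counting intervals and floors cover counting error only, and p-values measure the spread between independently isolated pools.

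Here these were rounded, genes were filtered by filterByExpr (minimum count 10, minimum total 15), and libraries were scaled with TMM and tested with edgeR 4.0.16 in R 4.3.3. The printed fold changes include edgeR's prior count and the 95% intervals do not, so the latter need not be centred on the former. Standard errors and intervals were worked back from the statistic of the edgeR test. They therefore add no evidence beyond its unadjusted p. The exact permutation test used every grouping of 4 and 5 libraries. Receptors below the filter were described by counts and a fit with no filter. Gene models were those of Ensembl for Release 6, which may differ in detail from that of the authors. No receptor sequence was used here.

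The members and lists were chosen with earlier results of these data known. By rule the text names the 10 receptors, *Orco*, the other larval receptors with the smallest p, *Or33b*, the 3 genes most like *Or35a* and *Or42a*, and markers. In contrast, *acj6*, *Or1a*, *Or63a*, *Or85b*, *Or94b* and the overlapping genes were named after their values were seen. Alternatives were RLE factors, library totals, leaving out rRNA genes, DESeq2 1.42.0, other filters, the replicate number as a block and leaving out each library. The test was also run on simulated data. Recovery of changes was required there only at a spread far below that of these libraries. Meeting that requirement therefore does not show what the test could find here. Recovery at the spread of these libraries was simulated as well and is not reported here.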

Additional observations from a re-analysis of the deposited data

Results flagged for a closer look

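Of 27 groups of libraries examined for the 10 receptors, *Orco* and library measures, 10 had 1 library far from the others of its genotype by a gap-over-range limit that chance passes in about 1 of 20 groups of normal values. That rate does not hold where the other libraries are all at 0. In *Orco* mutant 4 a count was seen where the remaining mutants were at 0 for *Or7a* (0.631 CPM), *Or13a* (1.26 CPM), *Or42b* (0.631 CPM) and *Or74a* (2.14 CPM). *Orco* mutant 5 was the high mutant library for *Or42a* (12.9 CPM) and *Or45a* (13.4 CPM), and *Orco* mutant 2 for *Orco* (1.31 CPM). Wild-type 2 was high for *Or45a* (52.8 CPM), wild-type 4 was the only wild-type library with *Or74a* (4.29 CPM), and wild-type 3 held most of *Or85c* (3.81 CPM).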

How the results depend on the processing

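No receptor passed the edgeR test under RLE factors, library totals, without rRNA genes, with no filter, with a stricter minimum of 10 counts in 5 or more libraries (which left out *Or35a* and kept 5 of the 10), or in the 9 fits that left out 1 library (0 lower and 0 higher in each). DESeq2 called 2 lower, and over all genes it called 106 against 3, while no filter gave 5 and leaving out a library 1 to 3 (1 without wild-type 2 or 4 or *Orco* mutant 2, 3 or 4). Its adjusted p was missing for *Or74a* and *Or85c*. Over the 9 fits that left out 1 library the adjusted p of *Or35a* from edgeR ran from 0.0753 to 0.462 and that of *Or13a* was at least 0.501. The log2 fold changes ran from -8.65 to -7.53 for *Or35a*, -4.30 to -2.45 for *Or45a*, -3.75 to -1.73 for *Or42a* and -3.28 to -1.69 for *Or67b*. Without *Orco* mutant 4 the mutants held 0 counts of *Or13a*, *Or7a* and *Or42b*. The number of receptors whose libraries did not overlap ran from 3 to 5, with *Or7a* and *Or67b* joining without wild-type 2 and *Or42a* without *Orco* mutant 5. The summed level was 5.38 to 5.84 times higher in wild-type over the scalings, 4.98 to 6.18 times when a library was left out, and 10.2 times without *Or47a*, a choice made after seeing the data.
*Or47a* changed sign with library totals (-0.091) and over the fits that left out 1 library (-0.41 to 0.43), and *Or74a*, fitted with no filter, turned from -1.24 to 4.55 without wild-type 4, its only wild-type library, with -5.79 as the lowest value. Same-numbered libraries did not deviate together (correlations from -0.094 to 0.027), so the numbers are taken not to pair samples. The fit with the replicate block over 8 libraries called 0 receptors and 4 genes, with *Or35a* at -8.99 (adjusted p = 0.341 from edgeR). *Or7a*, *Or42b*, *Or74a* and *Or85c* missed the filter because too few libraries had counts of them, and 1 or 2 wild-type libraries held most of their counts.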
